A study of Mus musculus with 3 samples.

Results

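Retinal astrocytes were described here as 66 of the 29084 cells kept from 3 single-cell RNA-seq libraries of mouse retina at postnatal day 6 (P6). Members were chosen by the UMI counts of each cell, so the rule rests on measured values. A cell was a member if *Gfap*, *Pax2*, *Pdgfra* and *S100b* together made up at least 5 of every 10000 of its UMIs (unique molecular identifiers, the counted transcripts), with at least 2 of the 4 genes detected. Cells with 5 or more UMIs per 10000 from endothelial genes (*Cdh5*, *Pecam1*, *Egfl7*), microglial genes (*Cx3cr1*, *C1qa*, *Csf1r*) or mural genes (*Pdgfrb*, *Rgs5*) were left out. The libraries came from WT mice, from *Tspan12* KO mice, which lack the tetraspanin co-receptor of Norrin signaling in every cell, and from *Ctnnb1* cKO mice. In the last group β-catenin was deleted only in endothelial cells (ECs), by *Pdgfb*-iCreERT after tamoxifen given shortly after birth, so astrocytes were not themselves targeted. Each library pooled the retinas of 5 pups of 1 litter, both sexes, on a C57BL/6 background, WT pups were not littermates of the knockouts, and whether WT pups received tamoxifen is not given in the sources used here. Cells had been enriched with beads against CD31 and CD11b, which mark ECs and myeloid cells. Astrocytes were not a target of the beads. With 1 library per group, genotype, litter and library cannot be told apart, and no value below tests a knockout against WT.

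Retinal astrocytes enter the retina from the optic nerve head and spread over its inner surface ahead of the growing vessels. *Pax2* is their lineage transcription factor, *Pdgfra* the receptor for the PDGF-A that drives their spread, and *Gfap* and *S100b* are a glial filament protein and a calcium-binding protein. Their network of fibronectin and secreted VEGF is the scaffold on which ECs migrate. Müller glia, the other macroglia of the retina, arise from retinal progenitors and share many glial genes with astrocytes.

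The gate held 16 of 9378 WT cells (0.171%, exact 95% binomial interval 0.0976 to 0.277), 39 of 11585 *Tspan12* KO cells (0.337%, 0.239 to 0.460) and 11 of 8121 *Ctnnb1* cKO cells (0.135%, 0.0676 to 0.242). The interval of *Tspan12* KO overlapped that of WT and just met that of *Ctnnb1* cKO at its lower end, and all intervals cover counting error only. Before the exclusions, 23, 55 and 24 cells met the rate with at least 2 rule genes detected, in the order WT, *Tspan12* KO, *Ctnnb1* cKO. Of these, mural genes removed 5, 10 and 1 cells, endothelial genes 1, 9 and 6, and microglial genes 1, 0 and 9, with 0, 3 and 3 cells removed on more than 1 count. Summed over the members, depth came to 112311, 594333 and 27247 UMIs, so that 1 UMI was worth 8.90, 1.68 and 36.7 CPM (UMIs of a gene per 1000000 UMIs summed over a library's members). Median depth per member was 6497, 6176 and 2407 UMIs. Depth was uneven within *Tspan12* KO, where 8 cells over 20000 UMIs held 66.5% of the UMIs and the deepest held 23.6%. No gated cell of the other libraries was over 20000 UMIs. The libraries shared few cell barcodes, 37 between WT and *Tspan12* KO, 21 between WT and *Ctnnb1* cKO and 36 between the knockouts.

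The rule genes chose the members, so their values are given as a description. *Pdgfra* was present in every member of WT (16 of 16) and *Tspan12* KO (39 of 39) and in 10 of the 11 of *Ctnnb1* cKO, and *Pax2* in 15, 34 and 9. *Gfap* was found in 10, 18 and 8 members and *S100b* in 10, 25 and 7, and all 4 genes were found together in 6, 11 and 3. *Pdgfra* and *Pax2* were thus the rule genes found in the most members of each library. The summed rule genes ran from 15.1 over a median of 24.6 to 48.0 UMIs per 10000 in WT, from 5.18 over 17.6 to 39.1 in *Tspan12* KO, and from 19.9 over 45.7 to 62.5 in *Ctnnb1* cKO. Among cells with at least 2 rule genes and no exclusion, the closest below the threshold stood at 2.85, 4.93 and 2.30 per 10000. Among such cells, WT and *Ctnnb1* cKO thus had a gap in rate. *Tspan12* KO ran through the threshold, with 10 members under 10 per 10000. A further 23, 66 and 13 cells reached the rate with only 1 rule gene detected, and were not members. Within *Tspan12* KO the 8 deep cells weighed on *Gfap* above all, whose level was 347 CPM with them and 60.2 CPM without them, against 329 CPM in WT and 771 CPM in *Ctnnb1* cKO. *S100b* ran from 0 over a median of 1.09 to 5.52 per 10000 in WT members, from 0 over 1.04 to 27.7 in those of *Tspan12* KO and from 0 over 12.7 to 27.2 in those of *Ctnnb1* cKO.

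**Figure D1:**
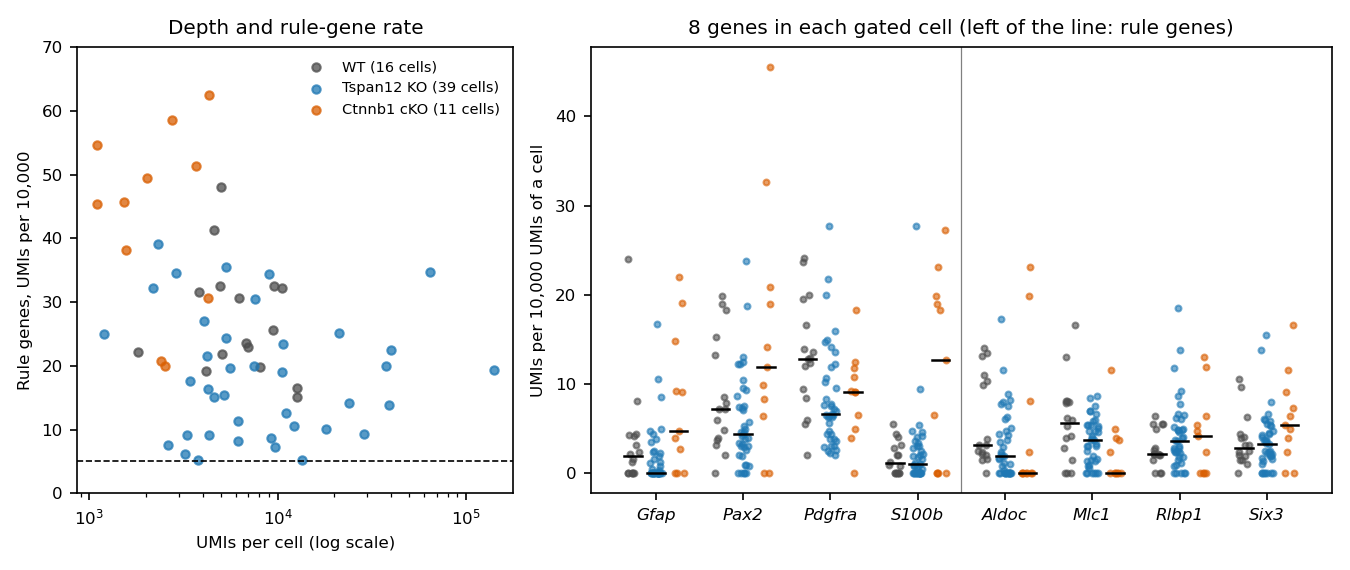
Left, depth of each gated cell (UMIs, log scale) against its rule-gene rate (UMIs per 10000), with the threshold of 5 dashed. Right, UMIs per 10000 of 8 genes in each gated cell, with rule genes left of the line and black bars at the medians of the 16 WT, 39 *Tspan12* KO and 11 *Ctnnb1* cKO cells. Only *Tspan12* KO holds cells over 20000 UMIs and cells near the threshold, and *Rlbp1* and *Six3* are present beside *Pax2* and *Pdgfra*.

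To ask what else set these cells apart, they were compared with 1469 WT, 1832 *Tspan12* KO and 320 *Ctnnb1* cKO cells gated in the same way on *Rlbp1*, *Dkk3*, *Glul* and *Abca8a*, genes of Müller glia and of the progenitors that form them. These are called Müller-gated cells here, although they also carried cycling genes. UMIs were summed per library and gate, and the 6 sums were fitted with edgeR's quasi-likelihood test with the library as a block, genes used by a gate being left out of counts. Of 11620 genes tested, 857 (7.38%) were higher and 1088 (9.36%) were lower in astrocyte-gated cells at a Benjamini-Hochberg adjusted p under 0.05, the counts against which the lists below are to be read, and the median log2 fold over all genes tested was −0.30. The block takes out differences in level among the libraries. The p-values thus measure how much the difference between the gates varied over 3 libraries of different genotype, with dispersion partly shared over genes. The SE values below are the size of the log2 fold divided by the square root of the test's F value.

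Aldolase C (*Aldoc*), an astrocyte enzyme that the rule did not use, stood at 543, 385 and 661 CPM in the astrocyte-gated cells (here and below in the order WT, *Tspan12* KO, *Ctnnb1* cKO), against 25.6, 35.9 and 22.4 CPM in Müller-gated cells. The log2 fold was 3.92 (SE 0.33, edgeR adjusted p = 6.4e-31), and *Aldoc* was higher in all 3 libraries. It was detected in 15 of 16, 26 of 39 and 4 of 11 members, and in 14.4%, 26.4% and 10.3% of Müller-gated cells, whose median depths were 6648, 5980 and 3931 UMIs. *Cst3*, the secreted protease inhibitor cystatin C, reached 14228, 8591 and 13359 CPM against 523, 493 and 922 CPM (log2 fold 4.02, SE 0.40). In cells with microglial markers it stood at 8723, 4907 and 5305 CPM, so *Cst3* was not particular to these members. *Mlc1*, a membrane protein of astrocyte endfeet, and *Ntrk2*, the BDNF receptor, followed with log2 folds of 6.99 and 4.65. *Mlc1* was close to 0 in the comparator, at 454, 422 and 330 CPM against 1.36, 3.47 and 6.73 CPM. Of 20 astroglial genes on the list, 16 were tested, 11 of them were higher and 1, the glutamate transporter *Slc1a2* (log2 fold −1.54), was lower, with a list median of 1.30. Of these, 7 of the 11 held under each of the alternatives that tested them, and *Slc1a2* was called in 6 of 9. The 4 that lost the call under at least 1 alternative were *Slc1a3* (log2 fold 0.96), *Vim* (0.86), *Id3* (1.01) and *Gja1* (1.75). *Sox9* (0.43, adjusted p = 0.40) and *Fabp7* (−0.74, adjusted p = 0.13) did not pass.

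The label of the cells was borne out only in part. The water channel *Aqp4* and the connexin *Gjb6*, defining markers of mature astrocytes, were at 0 UMIs in all 3 libraries, where 3 UMIs would have been 4.09 CPM over the libraries together. In Müller-gated cells they stood at 0.953 and 0.0265 CPM, below that level, so these zeros do not set the gates apart. *Aldh1l1* was at 0, 6 and 0 UMIs and *Fgfr3* at 1, 0 and 0. *Kcnj10*, the inward rectifier of glial endfeet, was also at 0, at least 4.18-fold lower than in Müller-gated cells with the libraries summed. Homeobox genes of retinal progenitors and Müller glia were present at levels close to those of Müller-gated cells. *Rax* stood at 383, 417 and 147 CPM against 357, 355 and 275, with a log2 fold of −0.17 (SE 0.33, adjusted p = 0.79). *Lhx2* stood at 232, 348 and 294 CPM against 237, 224 and 132, with a log2 fold of 0.33 (adjusted p = 0.55). *Six3* (−0.23) and *Six6* (−0.65) did not pass either, at adjusted p-values of 0.70 and 0.20. *Rlbp1* (312, 362 and 440 CPM) and *Dkk3* (472, 264 and 624 CPM) were in the same range as in the cells gated on them.

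For comparison, the same genes were counted in cells with endothelial or microglial markers, the only other classes looked at. *Rlbp1*, *Dkk3*, *Rax* and *Lhx2* together reached 5 per 10000 in 16 of 16, 37 of 39 and 10 of 11 members, but in 64 of 655, 95 of 476 and 148 of 2252 cells with endothelial markers and in 65 of 418, 129 of 639 and 316 of 2911 cells with microglial markers. In the endothelial-marker cells of WT, *Rlbp1* was at 16.8 CPM and *Rax* at 33.6 CPM, at a median depth of 13453 UMIs. Levels varied among classes and libraries, with *Six3* at 339 CPM in the endothelial-marker cells of *Ctnnb1* cKO and *Rax* at 105 CPM and *Rlbp1* at 42.9 CPM in the microglia-marker cells of *Tspan12* KO. The part of free RNA in these values was not tested. Not all retina-derived genes followed. Of 7 tested on that list, 0 were higher and 3 were lower in astrocyte-gated cells, with a median of −0.65. Among the lower were the crystallin *Crym* (17.8, 106 and 36.7 CPM against 1059, 764 and 251, log2 fold −3.67) and the carbonic anhydrase *Car14* (−1.31), which was called in 2 of 9 alternatives. The members thus carried *Rax*, *Lhx2* and *Six3* together with *Pax2* and *Pdgfra*, with little *Crym*. Because nearly every member passed the level above, a stricter gate without such cells left 0 WT, 2 *Tspan12* KO and 1 *Ctnnb1* cKO cells, and the set is called astrocyte-gated cells below. Which cell type they are was not tested further.

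**Figure D2:**
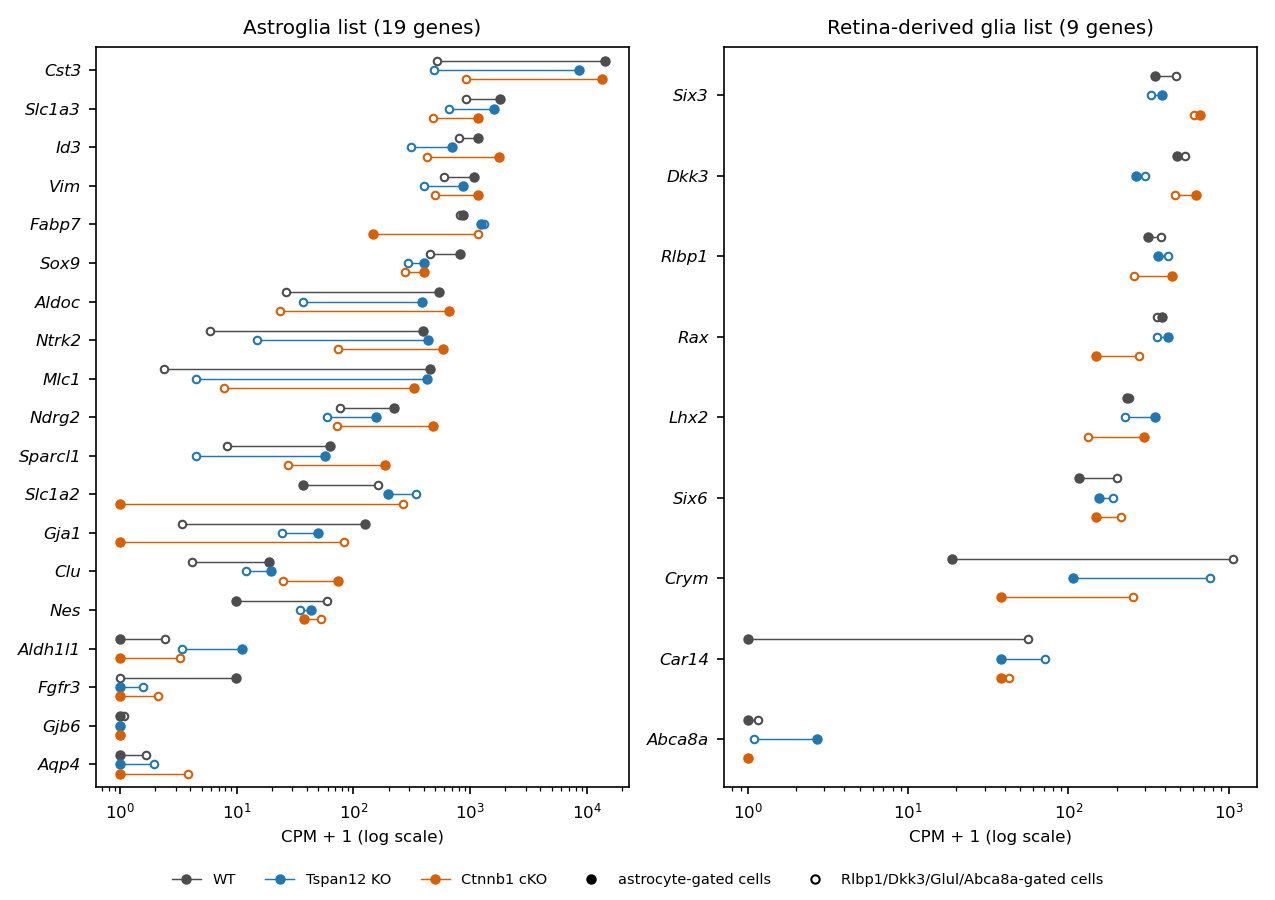
Level (CPM + 1, log scale) of 19 astroglial genes and 9 retina-derived glial genes in astrocyte-gated cells (filled) and Müller-gated cells (open) of each library, joined by a line. *Mlc1* and *Ntrk2* lie far to the right in the astrocyte gate, *Rax*, *Lhx2* and *Six3* lie close together in both gates, and *Crym* lies to the left.

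Of the 10 genes with the highest log2 folds, several were near 0 in Müller-gated cells. *Pax8*, a paired-box factor of the *Pax2* subfamily, stood at 240, 121 and 257 CPM against 0.08, 0.22 and 0.56 CPM (log2 fold 9.52) and was detected in 12, 16 and 5 members. *Rgs4*, a regulator of G-protein signaling, stood at 321, 136 and 257 CPM (8.84), and *Cdh19*, a cadherin of neural crest glia, at a log2 fold of 8.88. The heparan sulfate sulfotransferase *Hs3st3a1* (8.54), the tubulin glycylase *Ttll8* (8.91), the lipid phosphatase *Plpp4* (7.98), *C230072F16Rik* (9.91), *Gpr83* (8.74), *Cxcl12* (8.12) and *Bcan* (8.06) completed the list. *Gpr83*, a G-protein-coupled receptor, had 0 UMIs in WT, where 3 UMIs would be 26.7 CPM, and stood at 21.9 and 184 CPM in the knockouts, and *Ttll8* had 0 UMIs in *Ctnnb1* cKO, where 3 UMIs would be 110 CPM. The 10 genes with the lowest folds were at 0 UMIs in the gate. They were *Crhbp*, *Synpr*, *Glrb*, *Fhl2*, *Heyl*, *Cth*, *Adamts19*, *Trp53i11*, *Smpd3* and the progenitor ligand *Fgf15*. With the libraries summed, they were at least 5.19-fold (*Smpd3*) to 10.5-fold (*Synpr*) lower. By library, 3 UMIs would be 26.7, 5.05 and 110 CPM. In Müller-gated cells *Smpd3* stood at 14.4, 23.6 and 41.5 CPM and *Synpr* at 40.2, 40.8 and 89.2 CPM. *Ctnnb1* cKO on its own thus gave no bound for these genes, and WT gave no bound for *Smpd3*.

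Secreted factors that act on vessels were higher in many cases. Of 24 vascular ligands on the list, 16 were tested, of which 10 were higher and 1 was lower, with a list median of 1.97, and 7 of the 10 held under each alternative that tested them. *Cxcl12*, the chemokine that guides *Cxcr4*-positive ECs, stood at 329, 207 and 771 CPM against 0.83, 0.66 and 3.36 CPM, a log2 fold of 8.12 (SE 0.37). It was detected in 10, 28 and 7 members and in 0.749%, 0.655% and 1.88% of Müller-gated cells. *Vegfa*, the main attractant of retinal tip cells, stood at 712, 510 and 991 CPM against 68.5, 82.3 and 51.6 CPM, a log2 fold of 3.12 (SE 0.32, adjusted p = 1.5e-20). It was found in 16 of 16, 34 of 39 and 9 of 11 members, so it was a property of most gated cells and not of a few. *Igf2* (log2 fold 6.56), the lipase inhibitor *Angptl4* (5.73), the vasoactive peptide adrenomedullin *Adm* (4.59), apelin *Apln* (3.47), the lymphatic growth factor *Vegfc* (2.41) and the matricellular genes *Ccn2* (2.96) and *Ccn1* (1.10) were also higher. Several of these rest on few UMIs, with *Igf2* at 3, 15 and 1 and *Adm* at 2, 45 and 1. *Tgfb2* (0.89) was called in 3 of 9 alternatives. *Angpt1*, the ligand of *Tek* that stabilizes vessels, was the one that was lower, with 0, 0 and 1 UMIs, and was called in 5 of 9 alternatives. Norrin itself (*Ndp*) was at 53.4, 15.1 and 0 CPM against 13.4, 9.67 and 1.68, with a log2 fold of 1.07 (SE 0.62, adjusted p = 0.25).

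Of 24 matrix genes 19 were tested, of which 9 were higher and 2 lower, with a list median of 1.56. Under each alternative that tested them, 6 of the 9 and 0 of the 2 held. Fibronectin (*Fn1*), on whose fibrils tip cells move, stood at 2012, 1607 and 3266 CPM against 44.0, 23.5 and 26.4 CPM, a log2 fold of 5.93 (SE 0.38). The proteoglycans brevican (*Bcan*, 178, 180 and 330 CPM, log2 fold 8.06), versican (*Vcan*, 2.91) and agrin (*Agrn*, 2.88) and the glycoproteins *Sparcl1* (3.31) and tenascin C (*Tnc*, 2.56) were higher too. Laminin chains divided in the main test. *Lama5* (3.12), *Lamb2* (2.01) and *Lamc1* (1.12) were higher, whereas *Lama1*, the chain of the inner limiting membrane, was lower (0, 8.41 and 0 CPM against 58.7, 49.1 and 47.1, log2 fold −3.04). *Lama5* was called in 8 of 8 alternatives, *Lamb2* in 7 of 9, *Lamc1* in 5 of 9 and *Lama1* in 8 of 9. The collagen IV genes *Col4a1* (−0.27) and *Col4a2* (−0.06) and *Sparc* (0.25) did not pass. Summed over each list, vascular ligands took 2778, 1903 and 3450 CPM of astrocyte-gated cells and matrix genes 3722, 2976 and 6313 CPM.

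**Figure D3:**
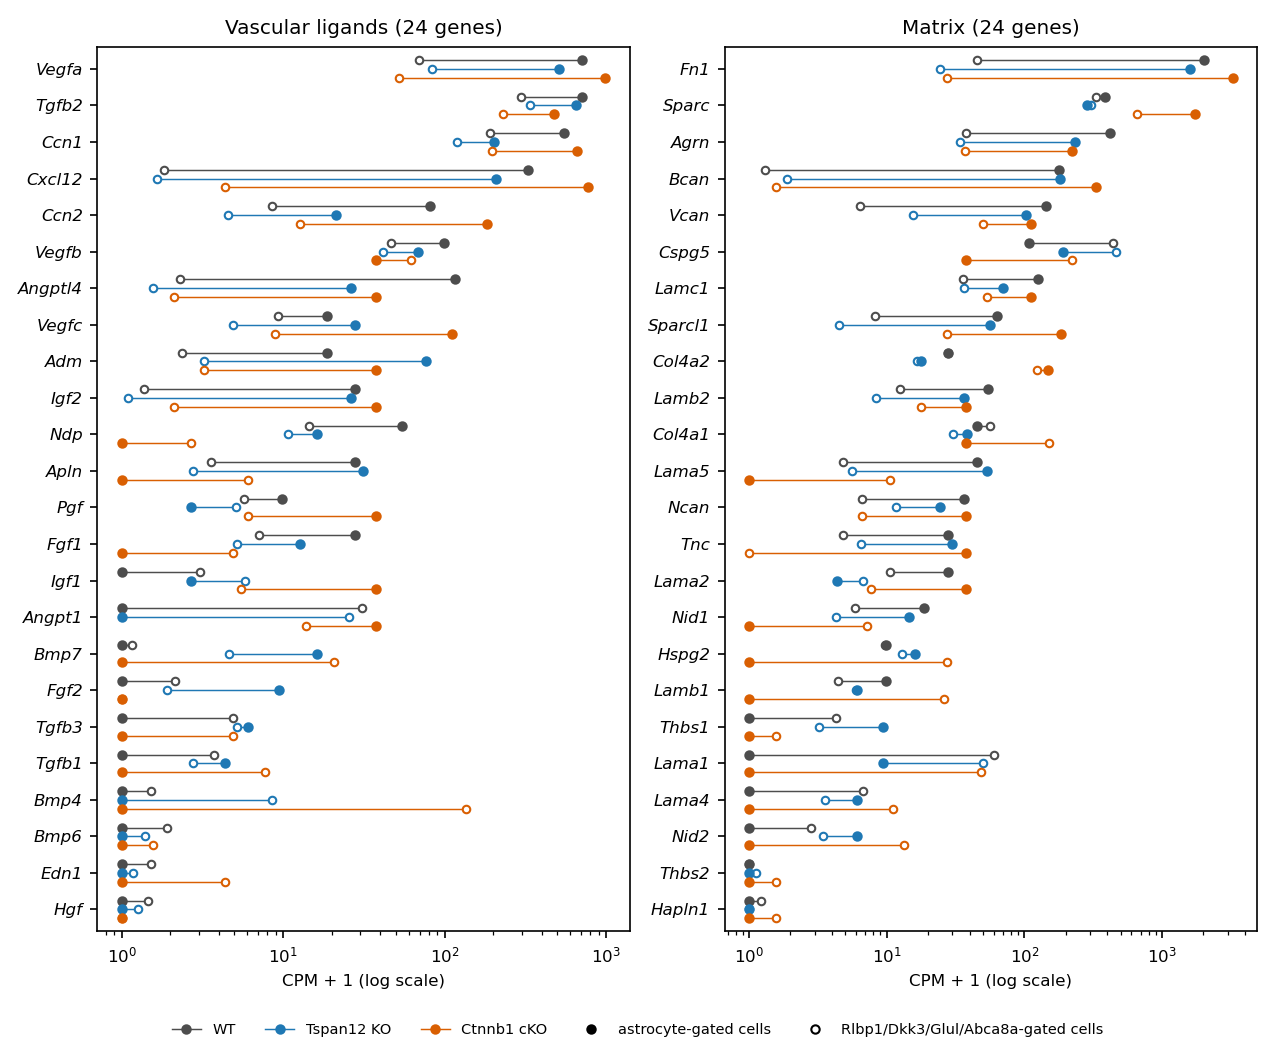
Level (CPM + 1, log scale) of 24 vascular ligands and 24 matrix genes in astrocyte-gated cells (filled) and Müller-gated cells (open) of each library. *Cxcl12*, *Vegfa*, *Fn1* and *Bcan* are to the right in the astrocyte gate of all 3 libraries, while *Angpt1* and *Lama1* are to the left in WT and *Tspan12* KO.

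Among guidance and adhesion genes, 4 of 17 tested were higher and 6 were lower, of which 2 and 1 held under each alternative. The higher ones were the repellent ligand *Sema3a* (log2 fold 2.85), the ephrin receptor *Epha4* (1.54) and the integrins *Itgav* (1.12) and *Itga6* (1.17), and *Itgb8*, which activates TGF-β, led the lower ones at −2.79. R-cadherin (*Cdh4*), which astrocytes are known to present to ECs, did not pass (−0.88, adjusted p = 0.093). The list of growth factor and cytokine receptors, which also holds the orphan nuclear receptor *Nr2e1*, gave 3 higher (*Bmpr1b*, *Tgfbr2* and *Nr2e1*) and 2 lower (*Cntfr* and *Egfr*) of 15, and 0 of these 5 held under each alternative. *Tgfbr2* rested on 2, 6 and 2 UMIs and was called in 4 of 9 alternatives, and *Nr2e1* in 6 of 9. Among 12 genes of immature glia, the inhibitor of differentiation *Id1* (1.54), *Id3*, *Nfia* (1.15) and *Vim* were higher, whereas the Notch target *Hes5* (−2.76) and cyclin D1 (*Ccnd1*, −3.14) were lower. Of these, 1 of the 4 higher and 2 of the 2 lower held under each alternative. *Hes5* stood at 97.9, 113 and 0 CPM against 1008, 399 and 489 CPM in Müller-gated cells.

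Of 13 tested members of the Norrin and Wnt list, 2 were higher and 2 were lower. *Tspan12* was among the higher, with 116, 69.0 and 0 CPM against 12.2, 9.40 and 9.53 CPM (log2 fold 2.75, SE 0.42, adjusted p = 1.6e-09, called in 9 of 9 alternatives). It rested on 13, 41 and 0 UMIs, where 3 UMIs would be 110 CPM in *Ctnnb1* cKO, and was higher in 2 of 3 libraries. The other was *Znrf3*, a Wnt target that removes Frizzled receptors, at 445, 212 and 257 CPM against 86.7, 77.1 and 76.8 (1.68). The feedback inhibitor *Nkd1* was lower (−2.72, called in 8 of 9 alternatives), as was *Wnt5a*, which was called in 2 of 7 alternatives. *Ctnnb1* (134, 212 and 73.4 CPM, −0.19), *Lrp5* (0.50) and *Lrp6* (−0.20) did not pass. That *Tspan12* transcripts were counted in *Tspan12* KO does not check the label. A 3' count can read an allele whose protein is lost, and the source of these UMIs was not tested. In cells outside the astrocyte and Müller gates, *Tspan12* stood at 12.3 CPM in *Tspan12* KO and 27.5 CPM in WT. *Ctnnb1* was not targeted in astrocytes.

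Genes of glycolysis were lower or did not pass. Of 12 glycolytic genes 0 were higher and 5 (*Pgk1*, *Pgam1*, *Eno1*, *Pkm*, *Gapdh*) were lower, at log2 folds from −1.61 to −0.92, and 0 of the 5 held under each alternative. Of 15 hypoxia-response genes the 2 secreted factors *Vegfa* and *Adm* were higher and 4 (*Bnip3*, *Ndrg1*, *Ankrd37*, *Mxi1*) were lower, while the glucose transporter *Slc2a1* did not pass (0.09). Under each alternative, 2 of the 2 higher and 0 of the 4 lower held. On the reactive astrocyte list, 5 of 9 were higher (*Cxcl10* 5.77, *Emp1* 4.25, *Socs3* 2.88, *Cebpd* 1.55, *Stat3* 1.39) and the receptor *S1pr3* was lower. *Cebpd* was called in 5 of 9 alternatives and *S1pr3* in 8 of 9. *Cxcl10* was detected in 2, 2 and 1 members, with 36 of its 38 WT UMIs and 9 of its 9 *Ctnnb1* cKO UMIs in 1 cell. *Lcn2*, *Steap4*, *C3*, *C4b* and *Aspg*, used as markers of reactive astrocytes, were at 0 UMIs in all libraries. Immediate early genes, which dissociation of tissue can induce, were higher in 9 of 11, with 0 lower, and 4 of the 9 held under each alternative. As a list they summed to 18698, 13100 and 13800 CPM against 7070, 6291 and 5509 CPM. Their part in the other differences was not tested.

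Markers of other cells were counted for the whole of each list named here. Rod genes were lower than in Müller-gated cells in 9 of 9 tested, at 267, 1770 and 73.4 CPM in sum against 1227, 3571 and 3304, but 0 of the 9 held under each alternative. Bipolar genes summed to 338, 646 and 294 CPM against 662, 1216 and 754, and cone genes to 62.3, 338 and 0 CPM against 300, 788 and 922. Pigment epithelium genes summed to 0, 60.6 and 0 CPM against 2.34, 22.5 and 7.85. A *Tspan12* KO member with 43.4 rod UMIs per 10000 held them at 18.4 per 10000. G2/M genes summed to 71.2, 806 and 110 CPM against 1600, 662 and 808, with 4 of 12 lower, of which 0 held. Endothelial genes summed to 178, 94.2 and 330 CPM and microglial genes to 169, 77.4 and 551 CPM, and *Ly6c1* and *Tmem119* were at 0. *Rgs5*, an exclusion gene, remained at 107, 160 and 110 CPM against 1.44, 2.90 and 7.85, while *Kcnj8* and *Acta2*, which mark pericytes and smooth muscle, were at 0. *Olig1*, *Olig2* and *Sox10*, which mark the *Pdgfra*-positive oligodendrocyte precursors, were at 0 UMIs in all libraries, as were all 6 fibroblast genes. Of the oligodendrocyte and Schwann cell list, *Pcdh15* (11, 326 and 0 UMIs) and *Cdh19* (10, 21 and 2 UMIs) gave most of the UMIs. Scrublet, a doublet caller, marked 0, 6 and 2 members. The highest scores of each library were marked, their number set beforehand at 0.8% per 1000 cells. Without the marked cells, 8632 of 9378, 10035 of 11585 and 7490 of 8121 kept cells remained.

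For the knockouts, the levels of astrocyte-gated cells were set beside WT as log2 ratios of summed UMIs with an exact 95% interval for counting error. A gene was counted as past 2-fold where the log2 ratio after adding 10 CPM reached 1 in size, among 6598 genes with at least 20 UMIs over the 3 libraries. In *Tspan12* KO 754 genes (11.4%) were past 2-fold higher and 332 (5.03%) lower, with a median log2 ratio over all genes of 0.07.

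In *Tspan12* KO most astroglial genes, vascular ligands and matrix genes stayed within 2-fold of WT, as did most genes. Of all 6598 genes, 16.5% were past 2-fold in either direction. The shares of astroglial genes and vascular ligands past 2-fold were above that, and the share of matrix genes was below it. Of 15 astroglial genes that reached 20 UMIs, 2 were past 2-fold higher and 2 lower, with a list median of −0.32. Vascular ligands gave 1 higher and 3 lower of 10 (median −0.48), and matrix genes 0 and 0 of 12 (median −0.27). *Aldoc* had a log2 ratio of −0.50 (−0.91 to −0.06) and *Cst3* of −0.73 (−0.81 to −0.65). *Sox9* stood at 819 CPM in WT and 400 CPM in *Tspan12* KO (−1.03, −1.39 to −0.67), with ratios of −0.61 in Müller-gated and 0.49 in all other cells on the CPM + 10 scale, which is used below for all ratios outside the gate. *Vegfa* had a log2 ratio of −0.48 (−0.84 to −0.11), which on the CPM + 10 scale became 0.15 with each cell weighted equally and 0.13 without cells over 20000 UMIs. *Fn1* likewise changed from −0.32 to 0.19 with equal weight. *Cxcl12* kept its direction, at −0.67 (−1.21 to −0.10), as did *Ccn1* (−1.45, −1.91 to −0.99). *Znrf3* stood at −1.07 (−1.55 to −0.57) and *Tspan12* at −0.75 (−1.68 to 0.28).

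The hypoxia-response list had a median of 1.15, with 5 of 8 past 2-fold higher and 0 lower, against 0.32 in Müller-gated and 0.27 in other cells. *Ndrg1*, a stress-induced gene, stood at 125 CPM in WT and 269 CPM in *Tspan12* KO (log2 ratio 1.11, 0.32 to 2.01), the oxygen sensor *Egln1* at 44.5 and 126 CPM (1.5, 0.22 to 3.17) and *Adm* at 17.8 and 75.7 CPM (2.09, 0.15 to 5.18). The median was −0.12 without the members Scrublet marked, −0.18 over the 3 listed genes with at least 100 UMIs and −0.03 with no filter. Glycolytic genes had a median of 0.22, with 0 of 12 past 2-fold either way.

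The lists that stood furthest from 0 in *Tspan12* KO were G2/M genes (median 2.33, 11 of 11 past 2-fold higher) and rod genes (2.47, 8 of 8). For rods the same direction was seen in Müller-gated (1.58) and other cells (0.74), whereas for G2/M the ratios there were −1.07 and −0.54. Thinned to 1000 UMIs per cell, 8 of 39 *Tspan12* KO members held at least 2 UMIs of G2/M genes (20.5%, exact interval 9.30 to 36.5), against 0 of 16 in WT, which allows up to 20.6%, and 0 of 11 in *Ctnnb1* cKO, up to 28.5%. A single member held 122 of the 479 G2/M UMIs of the library (25.5%). Without thinning, 15 of the 39 did (38.5%, 23.4 to 55.4) and WT remained at 0 of 16. With thinning, the interval of *Tspan12* KO overlapped that of WT. Without thinning it did not, but unthinned counts depend on depth, which differed between the libraries. *Tspan12* KO members of 140268 and 64369 UMIs held 8 and 6 G2/M UMIs before thinning and 0 after it. The deepest WT member had 12737 UMIs. These intervals cover counting error over the cells of 1 library each, and a difference between genotypes was not tested. Members over 20000 UMIs had median rates of 2.48 rod and 2.59 G2/M UMIs per 10000, and the other 31 had 7.01 and 0. The rod rate was 43.3 per 10000 in the deepest member, which held 23.6% of the UMIs of the *Tspan12* KO members. It reached 64.7 among the other 31, and the highest in a WT member was 5.52. Further members of those 31 stood at 63.1, 59.6, 47.4, 43.4 and 37.0 rod UMIs per 10000, and the next highest at 14.4. The rod ratios thus rest in large part on a few rod-rich members. Ratios without these members were not computed.

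The 8 highest ratios in *Tspan12* KO included neuronal and cycling genes. *Neurod1*, a photoreceptor and amacrine factor, stood at 26.7 CPM in WT and 368 CPM in *Tspan12* KO (log2 ratio 3.79, 2.22 to 6.08), with 61.2% of its UMIs in 1 cell. *Ebpl*, an emopamil-binding-like protein, stood at 8.90 and 399 CPM (5.48, 2.99 to 10.8), with 59.5% of its UMIs in 1 cell, and was 1.47 in Müller-gated cells. *Syt1*, a synaptic vesicle protein, had a ratio of 3.68 (1.80 to 6.74). The others were at 0 UMIs in WT. The ubiquitin ligase *Marchf1* was at least 6.80-fold higher, topoisomerase *Top2a* at least 5.04-fold, *Igsf21* 3.72-fold, *Samd11* 3.59-fold and *Trrap* 3.53-fold at least. Among the 8 lowest ratios, *Cxcl10*, an interferon-induced chemokine, stood at 338 CPM in WT and 8.41 CPM in *Tspan12* KO (−5.33, −7.03 to −3.98), but 36 of its 38 WT UMIs were in 1 cell. The stress-induced factor *Atf3* was more widely spread, in 9 of 16 WT members, at 810 and 143 CPM (−2.50, −2.95 to −2.06; −1.07 in Müller-gated and −1.27 in other cells). The others included *Adamts1* (−3.30), *Lingo2* (−3.11), *Fbxo33* (−2.78), the ERK phosphatase *Dusp6* (−2.75) and *Alpk1* (−2.57). Immediate early genes as a list had a median of −0.60, beside −0.28 in Müller-gated cells, and 1 of 11 was past 2-fold.

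**Figure D4:**
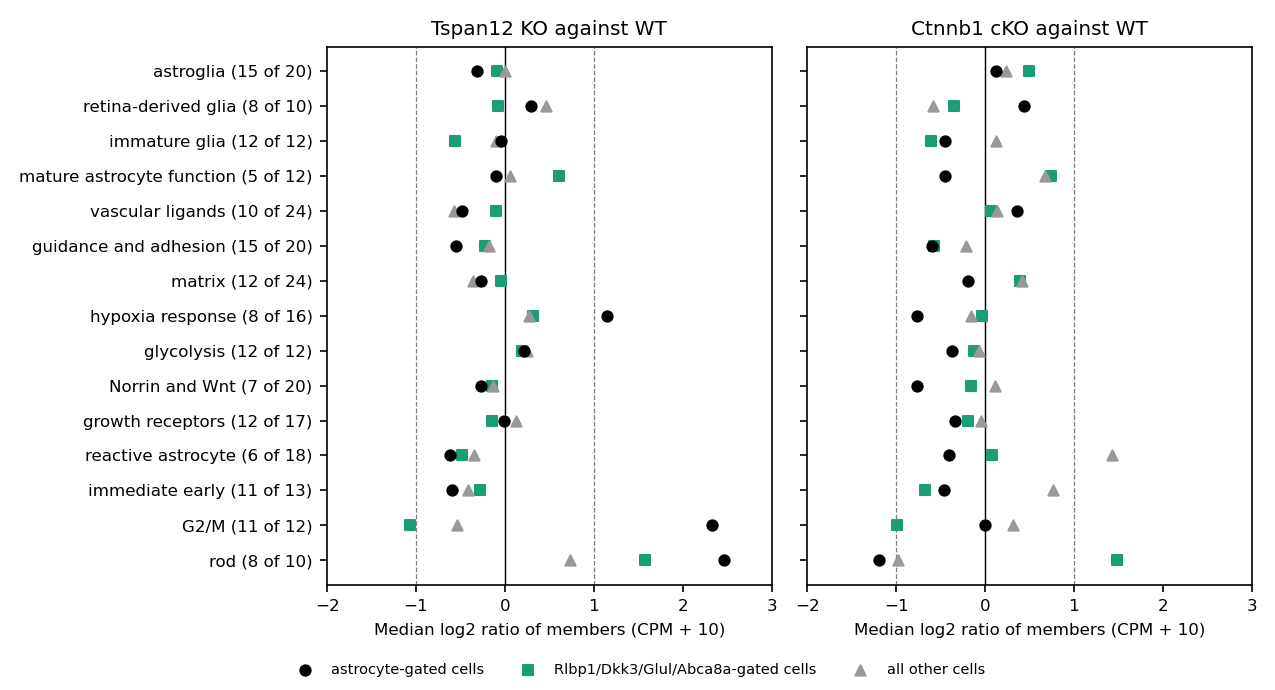
Median log2 ratio (CPM + 10) of the members of each list in each knockout against WT, in astrocyte-gated cells, in Müller-gated cells and in all other cells, with the number of members that reached 20 UMIs. Hypoxia response, G2/M and rod genes stand furthest to the right in *Tspan12* KO, and most lists lie between −1 and 1 in *Ctnnb1* cKO.

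In *Ctnnb1* cKO 924 genes (14.0%) were past 2-fold higher and 2148 (32.6%) lower, with a median log2 ratio of −0.27. They rest on 11 cells, in which 1700 of the 6598 genes (25.8%) had no UMI, against 96 (1.45%) in WT. The median mitochondrial share of the *Ctnnb1* cKO members was 0.182%, against 3.27% in WT and 2.70% in *Tspan12* KO, and the part of that difference in the ratios was not tested.

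In *Ctnnb1* cKO members, *Aldoc* stood at a log2 ratio of 0.28 (−0.56 to 1.06), *Cst3* at −0.09 (−0.26 to 0.07) and *Slc1a3* at −0.62 (−1.21 to −0.08). *Aldoc* was unevenly spread, with 10 of its 18 UMIs in 1 cell and a median over members of 0, against 3.17 per 10000 in WT. Astroglial genes gave 3 past 2-fold higher and 4 lower of 15 (median 0.12), beside 46.6% of all genes past 2-fold in either direction, and vascular ligands 3 and 3 of 10 (0.36). *Cxcl12* stood at 329 CPM in WT and 771 CPM in *Ctnnb1* cKO (1.23, 0.38 to 2.04), the opposite side of WT from *Tspan12* KO, a difference that was not tested. In all other cells its ratio was 1.31. *Fn1* stood at 0.70 (0.33 to 1.06). *Vegfa* (0.48, −0.21 to 1.12) had an interval that included 0. *Sparc*, a secreted collagen-binding protein, stood at 383 and 1725 CPM (2.17, 1.54 to 2.80), with 0.98 in Müller-gated and 1.45 in other cells and 48.9% of its UMIs in 1 cell. *Apoe*, the lipid carrier that glia and microglia share, stood at 552 and 2422 CPM (2.13, 1.61 to 2.66), with 54.5% of its UMIs in 1 cell and 2.32 in other cells. The microglial list summed to 551 CPM in these members against 169 CPM in WT, and its part in *Apoe* was not tested. *Fabp7*, a fatty acid carrier of immature glia, stood at 864 and 147 CPM (−2.56, −4.46 to −1.15), while in Müller-gated cells the ratio was 0.50.

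Of the 15 lists in the plot of list medians, rod genes had the median furthest from 0 in *Ctnnb1* cKO (−1.20, 1 higher and 4 lower of 8). Hypoxia-response genes stood at −0.76 (−1.13 with 3 rule genes required) with 0 higher and 3 lower of 8, Norrin and Wnt genes at −0.77 with 0 and 2 of 7, and guidance genes at −0.59 with 1 and 4 of 15. The share of lower genes was above the 32.6% of all genes for rod genes and lay near it for the other lists named here.

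Metallothionein *Mt1*, a metal-binding stress protein, had the highest ratio among genes with more than 6 UMIs there, at 178 CPM in WT and 3890 CPM in *Ctnnb1* cKO (20 and 106 UMIs, log2 ratio 4.45, 3.75 to 5.22). It was detected in 8 of 11 members, 57.5% of its UMIs were in 1 cell, and the ratio was 0.47 in Müller-gated and 3.43 in all other cells. The other 7 of the 8 highest ratios rested on 3 to 6 UMIs. *Ttr*, transthyretin, had 6 UMIs, all in 1 cell (at least 8.24-fold), *Plekhb1* and *Cog6* had 4 UMIs each (at least 5.50-fold), *Snrnp27* had 5 against 1 in WT (4.37, 1.21 to 9.93), and *Rad50*, *Map2k7* and *Cdc42ep4* had 3 each against 0. The 8 lowest ratios were at 0 UMIs in *Ctnnb1* cKO. *Atf3* was at least 7.36-fold lower than the 810 CPM of WT, with a ratio of 1.51 in all other cells. *Tmed9*, a cargo receptor, was at least 3.56-fold lower, *Dusp6* 2.67-fold, *Brinp1* 2.59-fold, *Gm16351* and *Mef2a* 2.26-fold, *Ube2d3* 2.10-fold and *Btbd17* 1.78-fold at least. *Atf3* and *Dusp6* were thus among the 8 lowest ratios of both knockouts, which share the WT cells they were compared with.

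**Figure D5:**
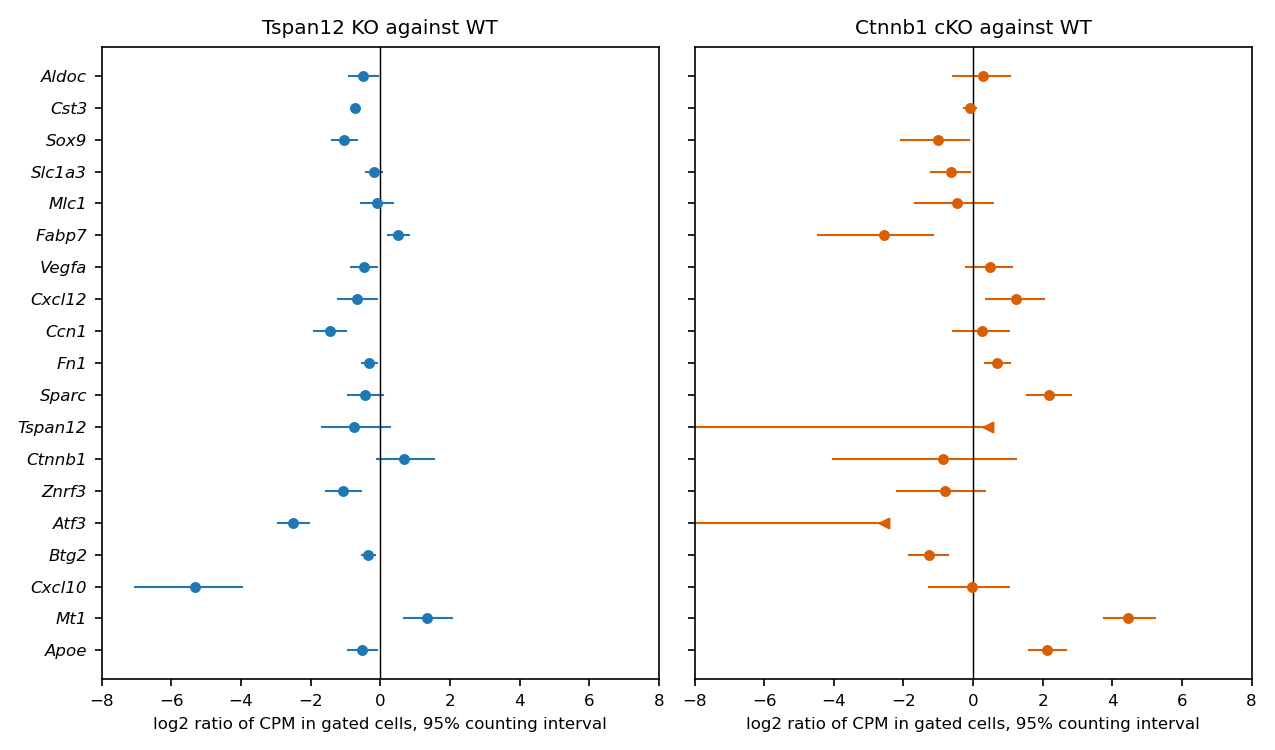
Log2 ratio of summed UMIs in astrocyte-gated cells of each knockout against WT with exact 95% counting intervals. *Aldoc* and *Cst3* are close to 0 in *Ctnnb1* cKO and below 0 in *Tspan12* KO, and *Cxcl12* lies on opposite sides of 0 in the 2 knockouts.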

How the data were processed

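Cells of P6 mouse retinas, enriched with CD31 and CD11b beads, were captured with 10x 3' chemistry. The authors deposited 1 filtered matrix of UMI counts per library, not normalized, made with Cell Ranger (8.0.1 in the file headers), with 33696 genes. The submitters' processing notes name GRCm39, the study's methods another build, and no coordinates are given here. The files held 9951, 14426 and 9151 barcodes (WT, *Tspan12* KO, *Ctnnb1* cKO) and 92684519, 137114957 and 37008362 UMIs.

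The analysis kept cells of 1000 UMIs or more in which no more than 15% of UMIs were mitochondrial, and doublets were not removed in the main analysis. Members were found by the marker rule in each cell. The members and gene lists were chosen with earlier results of these data known. CPM is the UMIs of a gene per 1000000 UMIs summed over the members of a library. Knockout and WT were compared by ratio with an exact conditional binomial 95% interval and no test. A gene at 0 was given a floor of 3 counts (26.7, 5.05 and 110 CPM in the members of the 3 libraries, 4.09 CPM over all). Fold bounds between knockout and WT use the floor of the library at 0. Those between gates use the floor over all, in which *Tspan12* KO holds 594333 of 733891 UMIs. The gate against gate comparison was fitted with edgeR 4.0.16 in R 4.3.3 (TMM, filterByExpr, quasi-likelihood, library as block) and Benjamini-Hochberg adjustment, with DESeq2 1.42.0 as an alternative. The tests were first run on simulated counts. Other steps used Python 3.11.15, scipy 1.17.1 and scanpy 1.11.5 (Scrublet). Named genes were list members, *Tspan12*, *Ctnnb1*, the 8 largest rises and falls per knockout and the 10 highest and lowest folds between gates, a few of which are not reported here. A ranked gene at 0 in the lower group depends on its pseudocount.

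Intervals cover counting error only: cells of a library share their mice and are no replicates.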

Additional observations from a re-analysis of the deposited data

How the results depend on the processing

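No paired analysis was possible because each group has 1 library. Between gates, 1945 genes passed in the main test. DESeq2 called 1040, the fit with no library block 923, and the fit without cells over 20000 UMIs 1213, an alternative chosen after the depths were seen. Leaving out 1 library at a time gave 701 (without *Tspan12* KO) to 1671 (without *Ctnnb1* cKO) genes, and 847 without WT. In *Tspan12* KO, 1086 of 6598 genes were past 2-fold, 683 of 5208 without the cells Scrublet marked, 555 of 3666 without cells over 20000 UMIs, 286 of 6598 with a pseudocount of 50, 183 of the 1388 with at least 100 UMIs and 2590 of 15707 with no filter. In *Ctnnb1* cKO, 3072 of 6598 became 1468, 1455, 476 and 5952 under the last 4 of these, over the same numbers of genes. Its members and those of WT hold no cell over 20000 UMIs, so there only the genes tested differed. TMM scaling moved the split to 954 higher and 222 lower in *Tspan12* KO and to 661 and 2492 in *Ctnnb1* cKO. The share of cells in the gate became 0.233% in *Tspan12* KO with 3 rule genes required. With low *Rlbp1*, *Dkk3*, *Rax* and *Lhx2* required it was 0%, 0.0173% and 0.0123%, which left too few cells for a ratio or a fit. The share of *Tspan12* KO members with G2/M UMIs was 38.5% without thinning. The hypoxia median of *Tspan12* KO turned from 1.15 to −0.12 without Scrublet-marked cells, −0.18 with at least 100 UMIs and −0.029 with no filter. Of the other list medians and named genes, 799 values lay inside the main value's interval (over list members for a median, counting error for a gene) and 32 outside. Part of the 799 was fixed in advance. A filter on a gene's UMIs cannot change its own ratio, so all 48 gene values were inside with at least 100 UMIs and with no filter. Requiring 10 per 10000, or no cell over 20000 UMIs, left the WT and *Ctnnb1* cKO members unchanged. The intervals are wide. Inside them, the *Ctnnb1* cKO median of vascular ligands went from 0.36 to −0.12 with at least 2000 UMIs per cell, growth receptors from −0.34 to −0.92, and hypoxia response from −0.76 to −1.01 there, −1.13 with 3 rule genes and −1.07 with a pseudocount of 1. Norrin and Wnt genes reached −1.04 with TMM. Other causes were not tested. Depth limits *Ctnnb1* cKO most, where 1 UMI is 36.7 CPM.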
